A study of Gallus gallus with 9 samples.

Results

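Livers of 3 adult hens hatched from eggs that had lost part of their albumen were compared with livers of 3 hens hatched from eggs that were drilled and otherwise left as they were. The groups were found through the sample titles, which name 3 albumen and 3 sham hens among 9 in all, the other 3 being non-manipulated controls. All hens were Isa Brown layers of 55 weeks that had been kept in floor pens. Eggs of the albumen-deprived group had 3 ml of their white exchanged for saline after day 1 of incubation. The sham-manipulated eggs had the same hole and seal, with neither withdrawal nor injection, so the exchange as a whole, loss of albumen and gain of saline together, is what differs. The non-manipulated eggs were left untouched, and their hens entered the fit of the spread and are given beside the main results as background. Liver RNA was sequenced from 1 library per hen, and the labels tie no hen to a pen, a dam or an hour of sampling.

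Albumen is the main protein store of the egg, and the embryo takes it up during incubation. The liver of a laying hen makes the precursors of egg yolk under oestrogen, builds fatty acids and triglycerides, converts cholesterol to bile acids and handles the nitrogen of amino acids. The comparison asks which of these hepatic programs still differed in adult life after the albumen had been reduced before hatch, with the drilling itself held equal.

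The 6 libraries held between 14075978 and 21747636 counts, so that 1 CPM before scaling stood for 14.1 to 21.7 reads. CPM values in the text are counts relative to the library total, scaled by TMM factors. Albumin (ALB) was the most abundant gene in each, with 9.57 to 13.1% of all counts, and 22 of 24 hepatocyte markers were found and tested. Spearman correlations between libraries of different groups (0.962 to 0.977 over 9 pairs) lay in the same range as those within a group (0.961 to 0.974 over 6 pairs), and no 2 libraries of a group agreed within sampling noise. Sham-manipulated hen 1 stood apart in several gene groups, with the smallest ALB share and the highest summed level of cell cycle genes (656 CPM against 329 to 408 CPM in the other 5 hens). Sham-manipulated hen 2 stood apart in others, with FKBP5, a glucocorticoid-induced chaperone, at 904 CPM against 79.0 to 177 CPM in the other 5 hens. Of 12 exocrine pancreas markers found, 4 had no count and 1 passed the filter on low counts.

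Of 22082 loci counted, 12324 passed 1 CPM in 3 or more of the 9 hens and were tested with the quasi-likelihood F-test of edgeR, 10341 of them previously identified genes. At the cut-off for DE genes, P under 0.001 with an absolute log2-fold change over 1, the albumen-deprived hens had 10 higher loci (0.0811%) and 3 lower ones (0.0243%), together 0.105% of the loci tested. At a loosened cut-off, P under 0.005 with a fold change over 1.5, there were 90 loci (0.730%), 66 higher (0.536%) and 24 lower (0.195%), of which 39 and 21 were identified genes. At an unadjusted P under 0.05 there were 879 loci (7.13%), 507 higher (4.11%) and 372 lower (3.02%). No locus passed an adjusted p of 0.05 (smallest adjusted p 0.226, edgeR with Benjamini-Hochberg adjustment), while the Wald test of DESeq2 passed 42 and the likelihood ratio test of edgeR 31. Both cut-offs use the unadjusted P, as in the study, so a call below is no adjusted finding and each gene is to be read from its hens. The fit took in all 9 hens, so the p-values measure the spread within all 3 groups, the non-manipulated hens included. An exact permutation test of 3 against 3 hens could not fall below 0.1. The 3 and 3 hens did not overlap for 1572 loci (12.8%), 832 higher (6.75%) and 740 lower (6.00%). All 90 loci at the loosened cut-off were among them, which selection by a small P makes likely and which is no further evidence. With each of the 9 libraries left out in turn, 22 of the 90 loci (14 identified) passed that cut-off in every fit, and a single library took away 20 to 53 of them. Leaving out a non-manipulated hen, which is in neither group compared, took away 20 to 25. The median log2-fold change over all loci was -0.01, and its median size was 0.17 with a median SE of 0.21. The log2-fold change was above 0 for 5889 loci (47.8%) and below 0 for 6435.

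**Figure D1:**
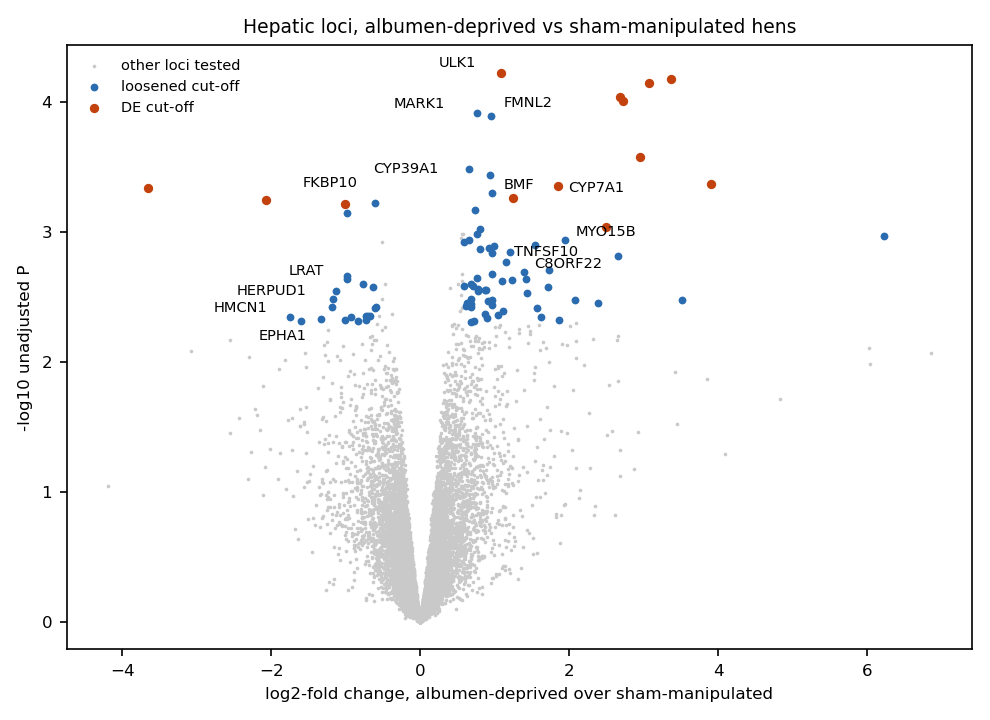
Each point is one of 12324 hepatic loci, with the log2-fold change of albumen-deprived over sham-manipulated hens on the x axis and -log10 of the unadjusted P on the y axis; orange marks the 13 loci of the DE cut-off and blue the other loci of the loosened cut-off. More loci pass to the right (66) than to the left (24), and ULK1, MARK1 and FMNL2 have the smallest P among identified genes with a symbol.

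Bile acids are made from cholesterol by P450 enzymes of the hepatocyte, and all 3 of the 7-alpha-hydroxylases were higher in the albumen-deprived hens. CYP7A1, the rate-limiting enzyme of the classical pathway (chromosome 2, 111724629 to 111733836, minus strand, 6 exons, Galgal4), was at 21.4, 8.54 and 20.3 CPM in sham-manipulated hens 1 to 3. It was at 58.6, 76.9 and 45.3 CPM in albumen-deprived hens 1 to 3. The albumen-deprived hens were all above the sham hens, with a fold change of 3.60 (log2-fold change 1.85 ± 0.35 SE, adjusted p = 0.418 in edgeR). The non-manipulated hens, at 70.1, 43.2 and 55.7 CPM, overlapped the albumen-deprived hens and lay above the sham hens (sham over non-manipulated, a comparison that shares the sham hens, -1.75 ± 0.35). The call held at the loosened cut-off in all 9 fits that left out 1 library and at the DE cut-off in 6. The fits that lost the DE cut-off were those without sham hen 3 (2.00), albumen-deprived hen 1 (1.87) or albumen-deprived hen 2 (1.63).

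CYP7B1, the oxysterol 7-alpha-hydroxylase, was at 186, 202 and 168 CPM in the sham hens and at 365, 273 and 253 CPM in the albumen-deprived hens. These did not overlap, and the log2-fold change was 0.68 ± 0.17 (adjusted p = 0.554). CYP39A1, which acts on 24-hydroxycholesterol, was at 82.6, 73.4 and 74.9 CPM in the sham hens and at 114, 131 and 121 CPM in the albumen-deprived hens. Its groups did not overlap, with a log2-fold change of 0.66 ± 0.12 (adjusted p = 0.418), and the call held in all 9 fits. That of CYP7B1 was lost without sham hen 1 (0.68), sham hen 3 (0.61) or albumen-deprived hen 1 (0.51), the log2-fold change of each fit being in parentheses. Both had non-manipulated hens between the other groups, at 199 to 244 CPM for CYP7B1, which reached into the sham range, and at 88.9 to 105 CPM for CYP39A1. Per length, in the deposited FPKM values, CYP7A1 averaged 2.95 in the sham hens and 13.6 in the albumen-deprived hens, CYP7B1 21.1 and 33.3, and CYP39A1 28.4 and 42.5.

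These were 3 of 21 tested genes of bile acid synthesis and transport, all higher at the loosened cut-off, as were 0.536% of all loci. No member was lower at that cut-off. Over the list 14 members had a positive log2-fold change, with a median of 0.15 against -0.01 for all loci. The median was 0.07 without albumen-deprived hen 1, 0.09 without sham hen 2 and 0.10 without albumen-deprived hen 2. FGFR4, the hepatic receptor through which FGF19 represses CYP7A1, was at 66.8, 87.4 and 74 CPM in the sham hens and 65.5, 55.8 and 56.1 CPM in the albumen-deprived hens. These did not overlap, by a narrow margin (log2-fold change -0.36 ± 0.14, adjusted p = 0.681). FGF19 itself overlapped, at 38.2, 14.7 and 7.99 CPM against 1.94, 1.94 and 19.1 CPM. HSD3B7, the next enzyme of the pathway, had a log2-fold change of 0.32 ± 0.16 (adjusted p = 0.751), and AKR1D1, the 5-beta-reductase, 0.82 ± 0.44 (adjusted p = 0.756). An unidentified locus 209 bases from AKR1D1, XLOC_001590, was at 3.3, 0.89 and 2.64 CPM against 5.82, 6.11 and 10.3 CPM and passed the loosened cut-off (log2-fold change 1.71 ± 0.42).

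ABCA1 exports cholesterol to nascent high density lipoprotein and is outside the bile acid list. It was also higher, at 82.9, 95.3 and 77.3 CPM against 58.7, 52.3 and 59 CPM in the sham hens. The log2-fold change was 0.59 ± 0.14 (adjusted p = 0.554), close to the lower limit of the loosened cut-off, and it passed in 4 of 9 fits with 1 library left out, whose log2-fold changes ran from 0.50 (without albumen-deprived hen 2) to 0.65 (without albumen-deprived hen 3). RORA, a nuclear receptor of lipid metabolism and the circadian clock, was at 10.4, 12.7 and 14.4 CPM in the sham hens and 18.2, 20.2 and 20.4 CPM in the albumen-deprived hens. All albumen-deprived hens were above all others (log2-fold change 0.65 ± 0.14, adjusted p = 0.475), and the call was lost without sham hen 1 (0.54) or albumen-deprived hen 3 (0.62). By contrast, cholesterol synthesis and uptake (22 genes tested) had a median log2-fold change of 0.01 with no member at the loosened cut-off. Its median ran from -0.39 (replicates 1 and 2 of each group alone) to 0.25 (without albumen-deprived hen 2) over the alternatives.

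**Figure D2:**
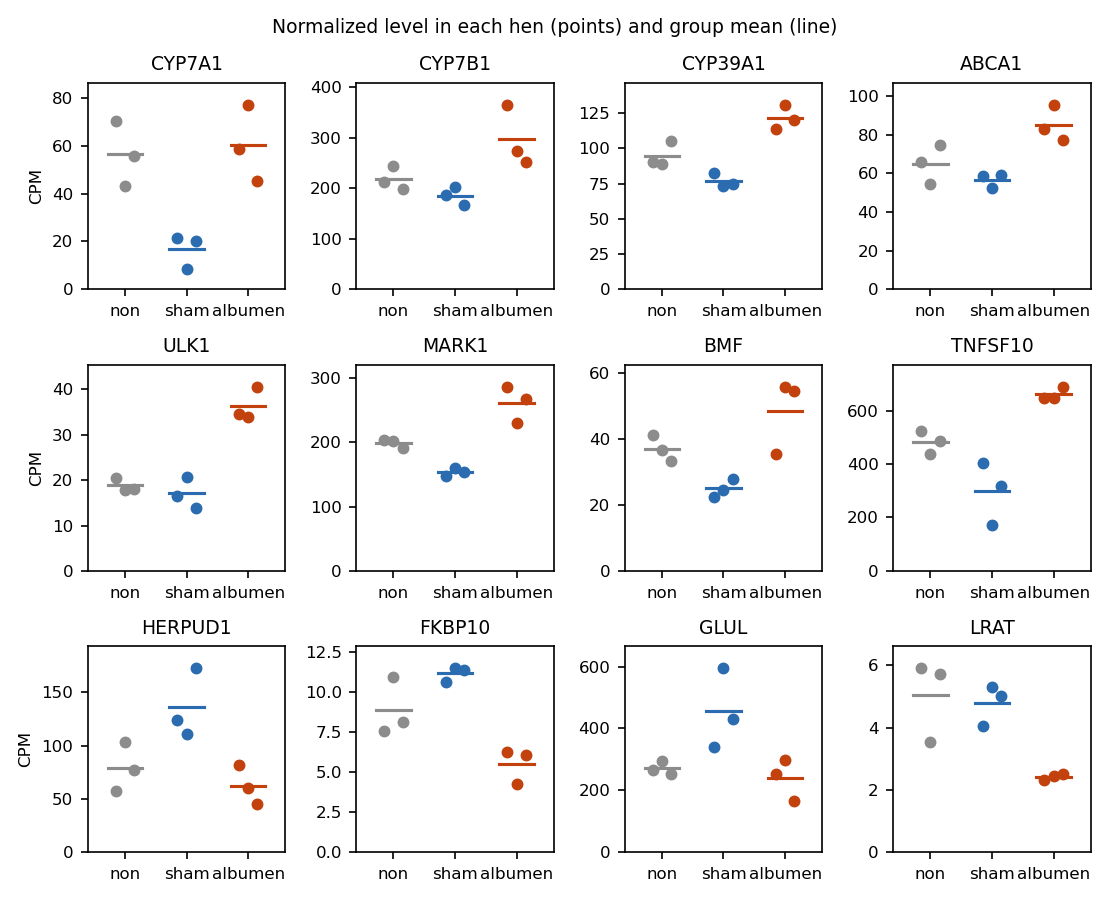
Points give the normalized level (CPM, linear axis from 0) of 12 genes in each of the 9 hens and lines the mean of the 3 hens of a group (grey non-manipulated, blue sham-manipulated, orange albumen-deprived). For each of the 12 genes the 3 albumen-deprived hens lie outside the range of the 3 sham hens, and the non-manipulated hens overlap the albumen-deprived hens for CYP7A1 and lie within the sham range for ULK1.

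ULK1, the kinase that starts autophagy when nutrients are short, had the smallest P of all loci. It lies on chromosome 15 (2621242 to 2693708, minus strand, 27 exons). It was at 16.6, 20.8 and 13.9 CPM in the sham hens and at 34.5, 33.9 and 40.6 CPM in the albumen-deprived hens, with the non-manipulated hens at 20.5, 17.9 and 18.1 CPM. The albumen-deprived hens were apart from all 6 others, with a fold change of 2.12 over the sham hens (log2-fold change 1.08 ± 0.16, adjusted p = 0.226). The difference from the non-manipulated hens, which is not independent of it because the albumen-deprived hens are shared, was 0.95. ULK1 passed the loosened cut-off in all 9 fits with 1 library left out, and the DE cut-off except where its size fell just under 1, without sham hen 3 (0.95) or albumen-deprived hen 3 (0.99).

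Among 34 tested autophagy genes ULK1 was the only one at the loosened cut-off, and the median log2-fold change was -0.02. UVRAG, a partner of the beclin complex, was at 49, 60.3 and 57.5 CPM in the sham hens and at 71.5, 74.2 and 87.4 CPM in the albumen-deprived hens (0.48 ± 0.14, adjusted p = 0.561). ULK2, the paralog of ULK1, was at 76.3, 116 and 65 CPM against 219, 151 and 121 CPM (0.93 ± 0.36, adjusted p = 0.681). Both were higher in all 3 albumen-deprived hens, without reaching the loosened cut-off. The other members were mixed, with 14 of 34 above 0, and genes of the conjugation machinery had small values, such as ATG3 (-0.16 ± 0.12) and ATG7 (0.24 ± 0.20), not at P under 0.05.

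MARK1, a kinase of the AMPK family that acts on microtubules, was at 148, 161 and 154 CPM in the sham hens and 286, 230 and 267 CPM in the albumen-deprived hens. The spread within each group was small for this distance (log2-fold change 0.76 ± 0.12, adjusted p = 0.226). FMNL2, a formin that elongates actin filaments, was at 7.65, 7.35 and 9.7 CPM against 14.2, 17.9 and 15.7 CPM (0.95 ± 0.15, adjusted p = 0.226). Both passed the loosened cut-off in all 9 fits, and their non-manipulated hens (191 to 203 CPM and 10.2 to 10.9 CPM) lay between the groups. Other genes of the cytoskeleton at the loosened cut-off included RAPH1 (lamellipodin, 0.77 ± 0.19) and MYO15B (an unconventional myosin, 1.94 ± 0.42), both higher. BAIAP2, an adaptor that bends membrane at actin protrusions, was lower, at 83.6, 113 and 124 CPM against 67.7, 63.3 and 75.3 CPM (-0.64 ± 0.16, in 5 of 9 fits). These genes were grouped, and RAPH1 named, after their values were seen.

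A pair of genes of cell death were higher in the albumen-deprived hens at the loosened cut-off, 2 of 29 tested, as were 0.536% of all loci. BMF, a BH3-only protein that triggers mitochondrial apoptosis, was at 22.5, 24.7 and 27.9 CPM in the sham hens and at 35.4, 56 and 54.7 CPM in the albumen-deprived hens. The log2-fold change was 0.96 ± 0.18 (adjusted p = 0.418), and it passed the loosened cut-off in all 9 fits. TNFSF10, the death ligand TRAIL, was at 404, 171 and 319 CPM against 647, 648 and 690 CPM. The albumen-deprived hens were closely alike and the sham hens were not (1.15 ± 0.26, adjusted p = 0.544), and the call was lost without sham hen 3 (1.20), albumen-deprived hen 1 (1.17) or albumen-deprived hen 3 (1.11).

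The median of the list was 0.01, and 4 members were higher and 2 lower at P under 0.05, where 4.11% and 3.02% of all loci were. IP6K2, an inositol phosphate kinase linked to cell death, was at 54.5, 95.9 and 63 CPM against 101, 203 and 138 CPM (1.05 ± 0.33, adjusted p = 0.596). On the other side, the inhibitor BCL2L1 was at 21.6, 30.8 and 18.8 CPM against 15.7, 17.2 and 14 CPM (-0.60 ± 0.21, adjusted p = 0.615). CASP2, an initiator caspase, was at 14.5, 11.2 and 10.9 CPM against 7.7, 10.1 and 7.64 CPM (-0.53 ± 0.18, adjusted p = 0.609). None of the last 3 reached the loosened cut-off, although in each the hens did not overlap. TRAF1, an adaptor of TNF receptors outside this list, was lower at the loosened cut-off, at 15.4, 14.2 and 9.97 CPM against 7.7, 7.6 and 7.9 CPM (-0.77 ± 0.19, adjusted p = 0.554), and kept it in 4 of 9 fits.

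Among genes of amino acid metabolism, 2 of 61 passed the loosened cut-off, both lower, as were 0.195% of all loci. GLUL, glutamine synthetase, which fixes ammonia in the liver, was at 341, 595 and 430.0 CPM in the sham hens and at 253, 297 and 167 CPM in the albumen-deprived hens. The groups did not overlap (-0.93 ± 0.25, adjusted p = 0.561), and the non-manipulated hens, at 266, 296 and 253 CPM, lay in the albumen-deprived range. The call held in 2 of 9 fits with 1 library left out, which gave -1.12 (without albumen-deprived hen 2) to -0.69 (without sham hen 2). GFPT2, which makes glucosamine 6-phosphate from glutamine, was at 5.74, 3.82 and 6.14 CPM against 2.33, 2.46 and 2.96 CPM (-1.01 ± 0.28, adjusted p = 0.561). It also held in 2 of 9 fits, which gave -1.20 (without sham hen 2) to -0.89 (without sham hen 3). Outside the list of 61, SMOX (spermine oxidase) and ABP1 (diamine oxidase), which break down polyamines, were higher (1.10 ± 0.27 and 0.81 ± 0.18, in 6 and 5 of 9 fits). They were placed here after their values were seen. ABP1 was at 22.9, 21.3 and 20.7 CPM in the sham hens and 41, 41.7 and 30.7 CPM in the albumen-deprived hens, and SMOX at 3.42, 2.14 and 3.63 CPM against 7.38, 6.74 and 5.53 CPM.

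Of 61 tested enzymes of amino acid metabolism, 4 were higher and 3 lower at P under 0.05, against 4.11% and 3.02% of all loci. The median of 0.05 ran from -0.03 without sham hen 3 to 0.14 without sham hen 2. KMO and ALDH4A1, of tryptophan and proline breakdown, were each 0.30 higher with no overlap of hens (both at P under 0.05), while PRODH, proline dehydrogenase, was at 1.8, 1.24 and 0.92 CPM against 0.65, 0.63 and 0.86 CPM. IDO2, which opens the tryptophan ring, was at 5.24 and 12.2 CPM in albumen-deprived hens 1 and 2 but at 0.59 CPM in hen 3, within the sham range of 0.41 to 1.54 CPM. Its log2-fold change of 2.54 ± 0.85 (adjusted p = 0.609) thus came from 2 hens. Of 18 tested amino acid transporters 13 had a positive log2-fold change, with a median of 0.18. It was 0.05 without albumen-deprived hen 1, 0.34 without sham hen 2 and 0.12 without sham hen 3. At P under 0.05, 2 were higher and 0 lower, where 4.11% and 3.02% of all loci were. Without sham hen 2, 5 were higher. SLC6A6, the taurine transporter, stood out among them at 94.5, 47.4 and 78.1 CPM against 149.6, 172 and 140.0 CPM (1.07 ± 0.29, adjusted p = 0.561), just outside the loosened cut-off. SLC3A1, a subunit of the cystine carrier, was at 23.7, 14.1 and 32.9 CPM against 49.7, 34.9 and 36.8 CPM (0.78 ± 0.32, adjusted p = 0.693). SLC7A10, a carrier of small neutral amino acids, has more than 1 locus in the files. That at the loosened cut-off was at 0.93, 0.6 and 1.98 CPM against 3.69, 4.74 and 2.24 CPM (1.63 ± 0.44), and reads may be split between the loci. This locus is not among the 18 tested transporters, none of which reached that cut-off. None of the 26 tested target genes of the amino acid sensor ATF4 reached P under 0.05, and their median was -0.04.

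**Figure D3:**
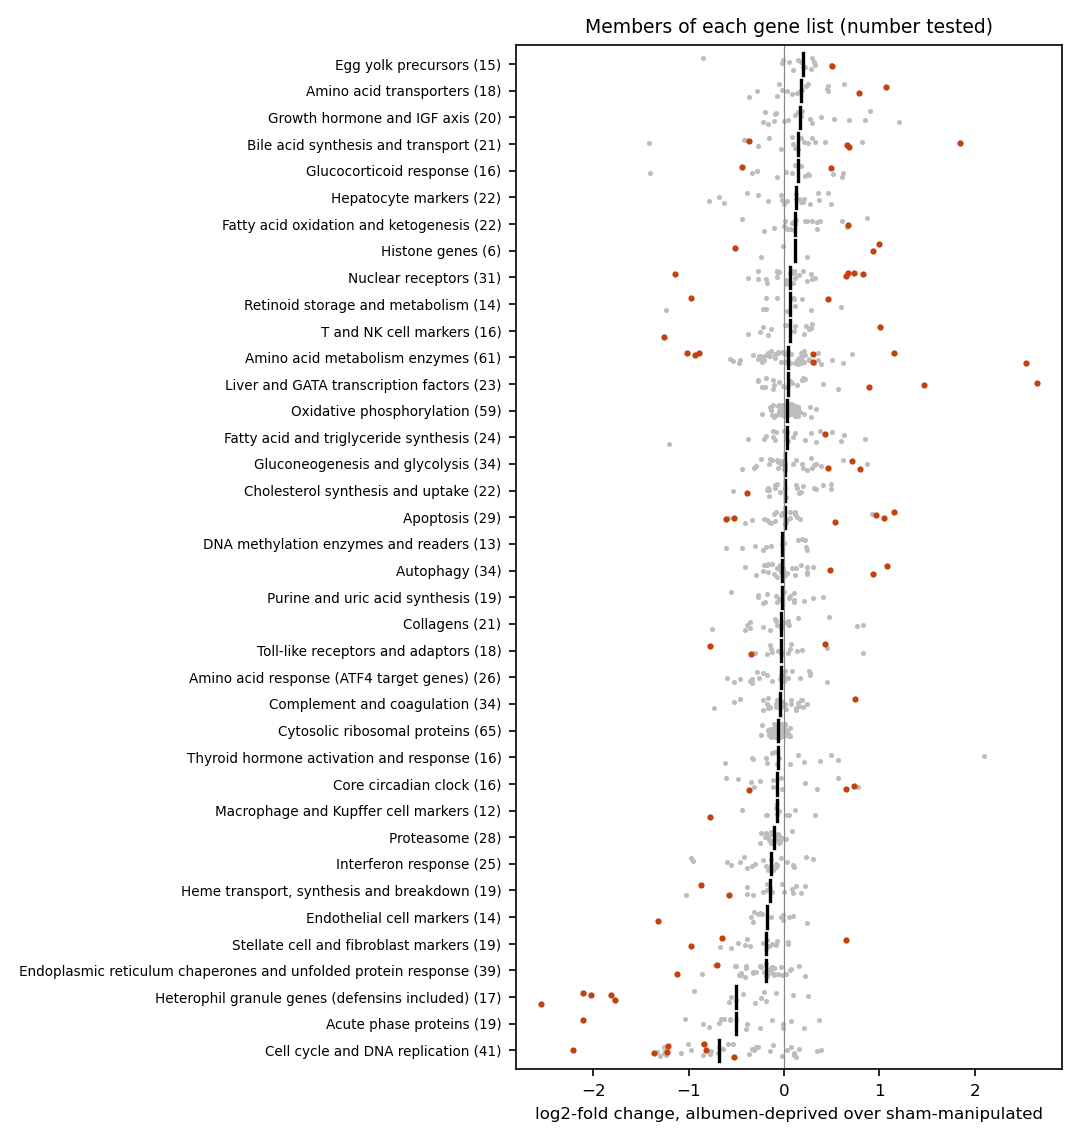
Each dot is a tested member of a gene list, placed by its log2-fold change of albumen-deprived over sham-manipulated hens, with orange for P under 0.05 and a black bar at the median of the list; the number of members tested is in parentheses. Most medians lie within 0.2 of 0, those of heterophil granule genes, acute phase proteins and cell cycle genes lie at -0.50, -0.51 and -0.68, and ribosomal, proteasome and oxidative phosphorylation genes form narrow bands near 0.

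Chaperones of the endoplasmic reticulum fold secreted proteins such as the yolk precursors. In a list of these chaperones and of unfolded protein response genes, 34 of 39 tested genes lay below 0, with a median of -0.19. Of all 12324 loci, 6435 lay below 0. In 10 of the 39 the albumen-deprived hens were all below the sham hens and in 1 (ERN1, 0.22 ± 0.18) all above, where 6.00% and 6.75% of all loci were. HERPUD1, a part of the machinery that removes misfolded proteins, was the only one at the loosened cut-off. It was at 124, 111 and 172 CPM in the sham hens and at 81.6, 59.8 and 45.2 CPM in the albumen-deprived hens (-1.13 ± 0.28, adjusted p = 0.554). The call was lost without non-manipulated hen 3 (-1.13), sham hen 3 (-0.92), albumen-deprived hen 2 (-1.10) or albumen-deprived hen 3 (-0.94). DNAJB9, a co-chaperone, was at 71.6, 113 and 73 CPM against 64.4, 56.2 and 37.8 CPM (-0.70 ± 0.27, adjusted p = 0.682).

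The chaperones HSPA5 and HSP90B1 overlapped between the groups, while CALR, PDIA4 and PDIA6 were among the 10 genes lower with no overlap. CALR was at 404, 424 and 357 CPM in the sham hens and 250, 269 and 349 CPM in the albumen-deprived hens. None of CALR, PDIA4 and PDIA6 was at P under 0.05. HSPA5 (BiP), which binds unfolded proteins, was at 338, 895 and 647 CPM against 416, 351 and 375 CPM, so that sham hen 1 was below every albumen-deprived hen (-0.72 ± 0.43, adjusted p = 0.785). HSP90B1, its Hsp90 chaperone, was at 948, 1753 and 1366 CPM against 977, 804 and 1066 CPM (-0.51 ± 0.34, adjusted p = 0.791). The median of the list was -0.24 without sham hen 1 and -0.13 without sham hen 2, which had the highest level of the list among the 6 hens. Non-manipulated hens were spread over the range of both groups for HSPA5, at 515, 1084 and 347 CPM. For HERPUD1 they were at 57.1, 103 and 77.0 CPM, below every sham hen and reaching above the albumen-deprived hens. FKBP10, a collagen-folding prolyl isomerase of the same compartment (chromosome 27, 4679153 to 4686458, plus strand), passed the DE cut-off at 10.6, 11.5 and 11.4 CPM against 6.28, 4.23 and 6.06 CPM (-1.01 ± 0.20, adjusted p = 0.418). Its size and P lay close to that cut-off, which it kept in 2 of 9 fits with 1 library left out, and it kept the loosened cut-off in all 9. The 21 tested collagens had a median of -0.03 and none at P under 0.05, and the proteasome had a median of -0.11 and none at P under 0.05. Signs as one-sided as those of the chaperone and unfolded protein response list were seen for the proteasome, with 26 of 28 below 0. The same held for cytosolic ribosomal proteins, with 56 of 65 below 0.

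**Figure D4:**
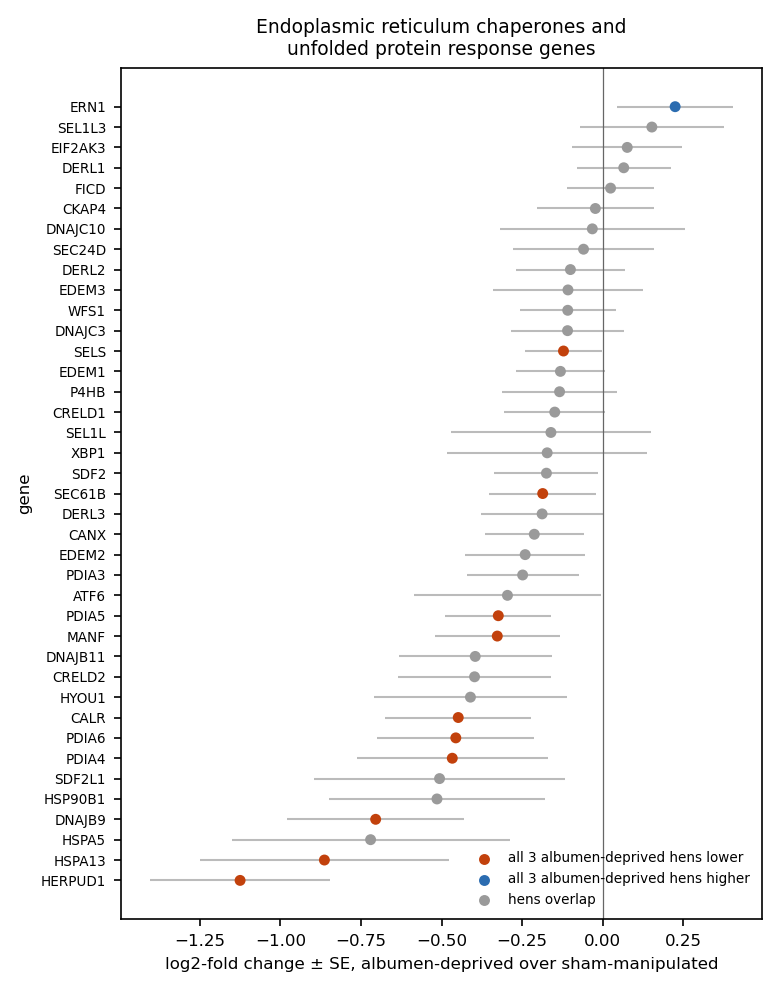
Points give the log2-fold change of albumen-deprived over sham-manipulated hens and bars its SE for the 39 tested chaperone and unfolded protein response genes, ordered by size; orange marks genes whose 3 albumen-deprived hens were all below the 3 sham hens and blue the reverse. Of the 39, 34 lie to the left of 0, and for HERPUD1 and DNAJB9 alone P was under 0.05.

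Heterophils are the avian counterpart of neutrophils. The list of their granule genes took in the avian beta-defensins as a family, and which cells made each transcript was not tested. Of its 17 tested genes 5 were lower at P under 0.05 in the albumen-deprived hens, as were 3.02% of all loci, and none passed the loosened cut-off. Of the 17, 15 lay below 0, none was higher at P under 0.05, and the median was -0.50 (-0.39 without albumen-deprived hen 2 to -0.69 without sham hen 3). That median was the value of the defensin GAL10 (-0.50 ± 0.38). Its hens overlapped, at 327, 629 and 207 CPM against 368, 220 and 234 CPM. GAL2, an avian beta-defensin, was at 8.4, 9.24 and 1.65 CPM in the sham hens and 1.55, 1.14 and 0.59 CPM in the albumen-deprived hens (-2.55 ± 0.74, adjusted p = 0.561). GAL7 was at 4.4, 4.17 and 1.52 CPM against 1.29, 0.86 and 0.72 CPM (-1.81 ± 0.56, adjusted p = 0.588). LECT2, the granule protein mim-1, was at 20, 20 and 4.36 CPM against 5.18, 3.2 and 1.91 CPM (-2.11 ± 0.71, adjusted p = 0.609). In each of these sham hens 1 and 2 were high and sham hen 3 was close to or within the albumen-deprived range. Non-manipulated hen 1, with GAL2 at 5.46 CPM and LECT2 at 15.1 CPM, was above the albumen-deprived hens. The study had listed GAL2, GAL7 and LECT2 on these same samples, so their direction is not independent evidence. Less transcript per cell and fewer heterophils in the tissue cannot be told apart in whole liver, here as for every gene below that marks a cell type. The summed level of the found granule genes was 3862 to 7812 CPM in the sham hens and 3930 to 6149 CPM in the albumen-deprived hens, most of it from GAL9, a defensin not limited to heterophils, whose log2-fold change was -0.09 ± 0.30.

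The list of acute phase proteins, which the liver secretes in inflammation, also held the regulators STAT3, SOCS3 and CEBPB. Of its 19 tested genes 16 lay below 0 (median -0.51). LECT2, already counted among the granule genes above, was the only member at P under 0.05, where 3.02% of all loci were lower. The fibrinogen chains FGA, FGB and FGG had log2-fold changes of -0.63, -0.68 and -0.78 with errors of 0.47 to 0.51. Single hens stood out, with FGG at 9046, 24004 and 9489 CPM in the sham hens and 9773, 4912 and 10066 CPM in the albumen-deprived hens. The median of the list was -0.17 without sham hen 2 and -0.69 without sham hen 3. STAT3, which carries the signal of interleukin-6 into the nucleus, was at 339.9, 472 and 314 CPM against 286, 256 and 249 CPM (-0.51 ± 0.24, adjusted p = 0.728). MYD88, the adaptor of toll-like receptors, was at 34.3, 32.2 and 33.5 CPM against 27.4, 25.9 and 25.4 CPM (-0.35 ± 0.11, adjusted p = 0.578), and TLR7, a receptor of single-stranded RNA, was at 3.94, 2.53 and 3.7 CPM against 1.88, 2.17 and 1.84 CPM (-0.78 ± 0.27, adjusted p = 0.631). MYD88 and TLR7 were lower in every albumen-deprived hen than in any sham hen. Of 18 tested toll-like receptors and adaptors, 8 lay above 0 and 10 below (median -0.03). At P under 0.05, 1 was higher and 2 were lower, where 4.11% and 3.02% of all loci were. TLR3, a receptor of double-stranded RNA whose locus also covers FAM149A, was at 47.9, 50.2 and 48.2 CPM against 61.3, 66.1 and 69.1 CPM (0.43 ± 0.13, adjusted p = 0.596). ZC3H12A, an RNase that limits inflammatory transcripts, passed the loosened cut-off at 30.1, 30.2 and 40.3 CPM against 25.9, 18.3 and 21.6 CPM (-0.61 ± 0.16, adjusted p = 0.561). It kept it in 3 of 9 fits, which gave -0.75 (without albumen-deprived hen 1) to -0.46 (without sham hen 3).

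Macrophage and Kupffer cell markers (13 of 20 found, 12 tested) summed to 1680 to 2002 CPM in the sham hens and 1544 to 1686 CPM in the albumen-deprived hens, with a median log2-fold change of -0.08. T and NK cell markers (16 of 20 found and tested) summed to 85.3 to 143 CPM and 84.0 to 143 CPM. Among them PRF1, the pore-forming protein of killer cells, was higher in all 3 albumen-deprived hens (1.00 ± 0.32, adjusted p = 0.596) and CD2, an adhesion receptor of T cells, lower (-1.26 ± 0.49, adjusted p = 0.681).

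Cell cycle genes had the lowest median of all lists (-0.68 over 41 tested genes), and its sign turned with 1 hen. At P under 0.05, 7 were lower and 0 higher, where 3.02% and 4.11% of all loci were. CCNB2, a cyclin of mitosis, was at 11.1, 3.58 and 3.5 CPM in the sham hens and 2.46, 2.91 and 2.44 CPM in the albumen-deprived hens. RACGAP1, needed for the last step of cell division, was at 4.75, 1.09 and 0.59 CPM against 0.26, 0.46 and 0.66 CPM. CKS1B, a regulatory subunit of cell cycle kinases, had the smallest P of the list. It was at 9.5, 4.12 and 2.24 CPM against 1.68, 2.17 and 2.3 CPM (-1.36 ± 0.46, adjusted p = 0.609). KIF11, a spindle motor not at P under 0.05, was at 14.2, 3.48 and 1.65 CPM against 3.04, 2.86 and 1.91 CPM. In each, sham hen 1 was the high one. Without it the median of the list was 0.08, 26 of 41 genes lay above 0, and 0 were lower and 1 higher at P under 0.05. E2F1, the transcription factor of the replication genes, was lower in all 3 albumen-deprived hens with it (-0.53 ± 0.19, adjusted p = 0.667) and had a log2-fold change of -0.43 without it.

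**Figure D5:**
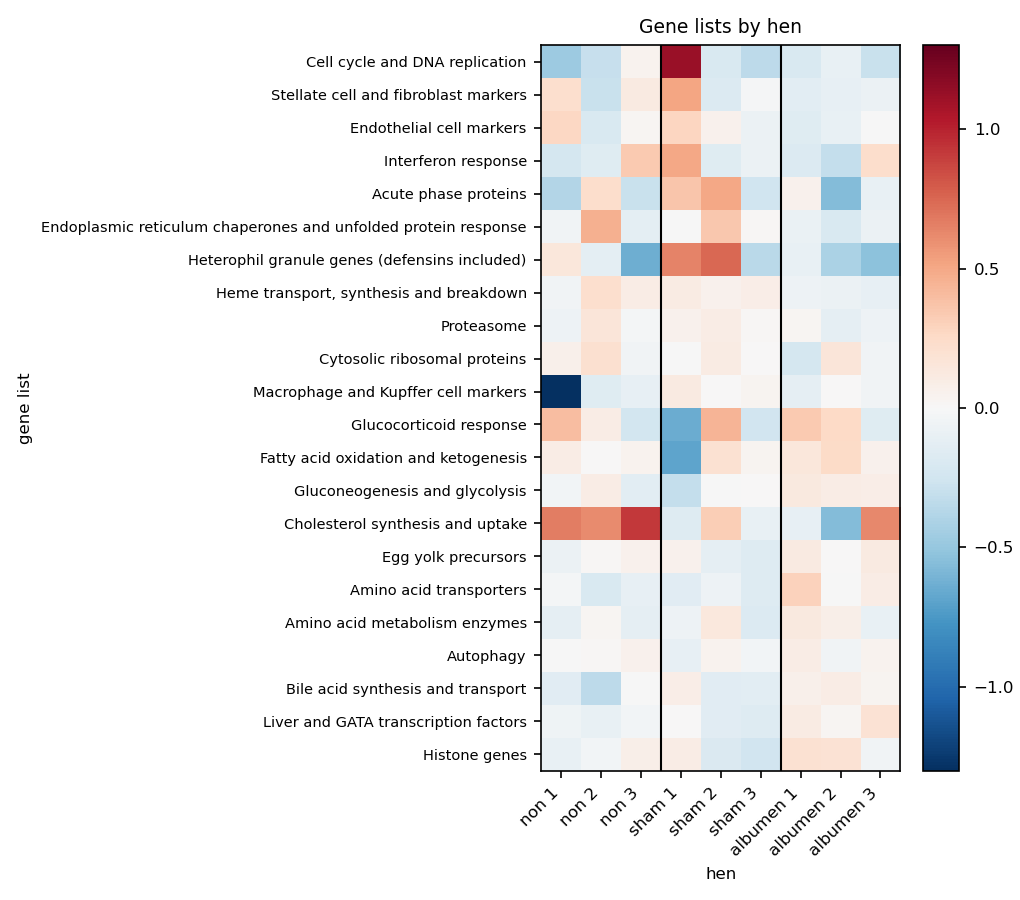
Colours give, for each gene list (rows) and hen (columns), the mean log2 CPM of the tested members minus its mean over the 6 sham-manipulated and albumen-deprived hens, blue below and red above 0. Sham-manipulated hen 1 is red for cell cycle genes and blue for fatty acid oxidation (-0.69), and sham-manipulated hens 1 and 2 are red for heterophil granule genes (0.64 and 0.75).

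Sham hen 1 also stood apart in other lists. Fatty acid oxidation genes were above 0 in 19 of 22 (median 0.12) with it. At P under 0.05, 1 was then higher and 0 lower, where 4.11% and 3.02% of all loci were. Without it 12 of 22 were above 0 (median 0.05), with 1 higher and 3 lower at P under 0.05. Without sham hen 2 the median was 0.29, with 20 of 22 above 0, 5 higher at P under 0.05 and 3 at the loosened cut-off, and without sham hen 3 it was 0.25. Interferon response genes had a median of -0.14 with it and 0.04 without it. Stellate cell and fibroblast markers (20 of 23 found, 19 tested) summed to 611 to 843 CPM in the sham hens and 680 to 744 CPM in the albumen-deprived hens. The locus of COL6A2 among them also covers FTCD. Of the 19, 16 lay below 0 (median -0.18, and 0.03 without sham hen 1). At P under 0.05, 1 was higher and 2 were lower, where 4.11% and 3.02% of all loci were. The higher one was FBLN1, at 114, 129 and 157 CPM against 261, 151 and 214 CPM (0.65 ± 0.20, adjusted p = 0.596). Endothelial markers (14 of 16 found and tested) summed to 680 to 834 CPM and 679 to 718 CPM. The highest sum of both lists was that of sham hen 1. EMCN, a sialomucin of vessel walls, was at 16.9 CPM in that hen and at 2.78 to 4.61 CPM in the other 5.

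LRAT, which esterifies retinol for storage and in the liver marks stellate cells, was lower and did not rest on sham hen 1. It was at 4.06, 5.31 and 5.02 CPM in the sham hens and at 2.33, 2.46 and 2.5 CPM in the albumen-deprived hens, with the non-manipulated hens at 5.91, 3.54 and 5.72 CPM. The albumen-deprived hens were below all 6 others (-0.98 ± 0.24, adjusted p = 0.554). The call was lost when sham hen 2, sham hen 3 or a single albumen-deprived hen (any of them) was left out, and the fits without 1 library gave -1.09 (without sham hen 1) to -0.90 (without sham hen 2). BCMO1, which cleaves beta-carotene to retinal, was at 27.1, 17.6 and 22.9 CPM against 38.8, 29.7 and 24.7 CPM (0.46 ± 0.20, adjusted p = 0.694), with the ranges overlapping. The other 12 tested retinoid genes were not at P under 0.05.

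KLF10, a zinc finger factor induced by TGF-beta, was at 47.1, 38 and 42.4 CPM in the sham hens and 73.2, 58.3 and 60.8 CPM in the albumen-deprived hens (0.59 ± 0.13, adjusted p = 0.475). FOXP2, a forkhead repressor, was at 33.1, 24.6 and 32.7 CPM against 71.6, 41.1 and 54.4 CPM at 1 of its 3 loci (0.89 ± 0.22, adjusted p = 0.554). MED13, of the Mediator kinase module, was at 50.1, 74.8 and 55.6 CPM against 86.1, 138 and 105 CPM (0.86 ± 0.21, adjusted p = 0.554). In each of these 3 the lowest albumen-deprived hen was above the highest sham hen. ZBTB42, a zinc finger protein, was 0.80 ± 0.17 higher (adjusted p = 0.475), and MINA, an oxygenase of histones and ribosomal proteins, 0.76 ± 0.16 higher (adjusted p = 0.475), both past the loosened cut-off in all 9 fits. CXXC5, a reader of unmethylated CpG, was lower, at 17.4, 14 and 25 CPM against 9.06, 9.54 and 9.94 CPM (-0.98 ± 0.23, adjusted p = 0.554). KLF10, FOXP2, MED13 and CXXC5 kept the loosened cut-off in 6, 4, 5 and 5 of 9 fits. These 6 genes were placed together after their values were seen and are no list.

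Outside the cut-off, GATA5, a zinc finger factor of endoderm and heart, was at 1.1, 0.4 and 0.59 CPM against 2.39, 1.26 and 9.61 CPM (2.65 ± 0.88, adjusted p = 0.605), its size set mainly by albumen-deprived hen 3. Of 31 tested nuclear receptors 4 were higher and 1 lower at P under 0.05, against 4.11% and 3.02% of all loci. PPARA, the receptor that drives fatty acid oxidation, was at 48, 86.5 and 49.6 CPM against 90.6, 113 and 90.7 CPM (0.68 ± 0.22, adjusted p = 0.605). Its sham hen 2 lay close to the albumen-deprived hens. ESR2, an oestrogen receptor, was at 20.1, 9.98 and 20.5 CPM against 21.8, 38.3 and 29.2 CPM (0.82 ± 0.30, adjusted p = 0.664). NR0B1, a repressor of other nuclear receptors, was at 36.1, 120.2 and 36 CPM against 21.9, 31.5 and 33.4 CPM (-1.15 ± 0.44, adjusted p = 0.681), the high value being sham hen 2, without which the log2-fold change was -0.32. In the clock, NR1D2 was 0.74 ± 0.30 higher (adjusted p = 0.688) and CRY1 lower (-0.37 ± 0.16, adjusted p = 0.695), and the remaining 13 of 16 genes beside RORA were not at P under 0.05. The hour at which each hen was killed is not in the labels, and its part in these values was not tested.

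Of 6 tested histone genes 2 were higher and 1 lower at P under 0.05, against 4.11% and 3.02% of all loci. H2B-I was at 4.64, 3.18 and 3.43 CPM in the sham hens and at 9.25, 6.97 and 6.19 CPM in the albumen-deprived hens (0.99 ± 0.22, adjusted p = 0.477), which passed the loosened cut-off and kept it in 6 of 9 fits. H2A-VII was at 49, 31.7 and 29.8 CPM against 94.6, 69.5 and 46.3 CPM (0.93 ± 0.27, adjusted p = 0.561), with 1 albumen-deprived hen in the sham range. Both belong to families of near-identical copies (3 and 6 loci here), whose reads can be split or lost. H2AFZ, the variant H2A.Z that has a single locus, was at 38.5, 34.2 and 31 CPM against 24, 25.5 and 23.3 CPM (-0.51 ± 0.13, adjusted p = 0.561), which passed the P of the loosened cut-off and not its fold.

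Carbohydrate genes had 3 of 34 members higher at P under 0.05 and none lower, where 4.11% and 3.02% of all loci were. SLC2A2, the hepatic glucose carrier, was at 102, 43.2 and 89.2 CPM against 142, 133 and 109 CPM (0.71 ± 0.27, adjusted p = 0.681). GYS2, liver glycogen synthase, was at 102, 84.1 and 107 CPM against 146, 136 and 120.5 CPM (0.46 ± 0.16, adjusted p = 0.609), and FBP2, a fructose bisphosphatase, was 0.79 ± 0.25 higher (adjusted p = 0.596). In each the hens did not overlap. PCK1, a regulatory enzyme of gluconeogenesis, overlapped, at 0.75, 170 and 50.6 CPM against 148, 115 and 77.7 CPM (0.62 ± 1.20, adjusted p = 0.940). Sham hen 1 had 13 reads of it. Of the 34 genes 5 lay higher and 1 lower with no overlap, against 6.75% and 6.00% of all loci, and the median of the list was 0.01.

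The yolk program had no member at the loosened cut-off. MTTP, which loads lipid onto apolipoprotein B, came closest, at 81.1, 63.9 and 77.9 CPM in the sham hens and 110.3, 104 and 103 CPM in the albumen-deprived hens. It passed the P and missed the fold change (log2-fold change 0.51 ± 0.12, adjusted p = 0.554). VTG2, a vitellogenin, was at 55818, 67397 and 57789 CPM against 80539, 63646 and 80952 CPM (0.31 ± 0.20, adjusted p = 0.791). VTG1, a further vitellogenin that the count table names TPRXL and describes as vitellogenin-1, was at 32878, 32960 and 31300 CPM against 40494, 36914 and 41579 CPM with no overlap (0.29 ± 0.17, adjusted p = 0.785). Of 15 tested yolk genes 12 lay above 0 (median 0.20), and with a replicate block and GC-bin full quantile normalization the median was 8.9e-06. With 1 library left out it was 0.15 to 0.26. The sum of those found was 195494, 214946 and 191786 CPM in the sham hens and 233283, 211625 and 235936 CPM in the albumen-deprived hens, so that the ranges overlapped. Fatty acid and triglyceride synthesis had a median of 0.04 over 24 genes, with ELOVL6, a fatty acid elongase, the only one at P under 0.05 (0.43 ± 0.19). Oxidative phosphorylation (59 tested, median 0.04), cytosolic ribosomal proteins (65 tested, -0.06), purine and uric acid synthesis (19 tested, -0.02), DNA methylation enzymes and readers (13 tested, -0.02) and the growth hormone and IGF axis (20 tested, 0.16) had no member at P under 0.05.

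In the transport and metabolism of heme and metals, 13 of 19 genes lay below 0 (median -0.15), and 5 did so with no overlap of hens, against 6.00% of all loci. The 2 genes at P under 0.05 were both lower, as were 3.02% of all loci. SLC39A14, which takes up zinc and iron, was at 168, 176 and 120.1 CPM against 62.6, 75.2 and 116 CPM (-0.87 ± 0.29, adjusted p = 0.609). FECH, which inserts iron to form heme, was at 22, 35.4 and 19.3 CPM against 17.6, 16.6 and 17.1 CPM (-0.58 ± 0.22, adjusted p = 0.681). SLC20A2, a sodium-phosphate carrier, passed the loosened cut-off in all 9 fits at 59.5, 55.8 and 60.7 CPM against 101, 94.4 and 97.6 CPM (0.74 ± 0.15, adjusted p = 0.438).

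Further single genes passed the loosened cut-off. MEI1, a gene of meiosis, was at 3.07, 4.12 and 3.43 CPM in the sham hens and 6.79, 7.26 and 6.39 CPM in the albumen-deprived hens (0.94 ± 0.17, adjusted p = 0.418), and passed in all 9 fits. C8ORF22, an open reading frame of unnamed function, was at 915, 2199 and 2001 CPM in the sham hens and at 4927, 4412 and 4068 CPM in the albumen-deprived hens (1.39 ± 0.33, adjusted p = 0.554). TMEM86A, a lysoplasmalogenase of the membrane, was at 169.7, 196 and 285 CPM against 357, 697 and 476 CPM (1.23 ± 0.30, adjusted p = 0.554). SEMA6D, a semaphorin whose locus also holds gga-mir-1744, was at 38, 38.7 and 43.7 CPM against 61.4, 83.4 and 82.9 CPM (0.92 ± 0.20, adjusted p = 0.477). All 3 genes were higher in each albumen-deprived hen than in any sham hen. PDE11A, which degrades cAMP and cGMP, was lower, at 344, 185 and 336 CPM against 169, 147 and 168 CPM (-0.84 ± 0.23, adjusted p = 0.561), with 315 to 397 CPM in the non-manipulated hens. HMCN1, an extracellular matrix protein, was at 14.4, 11 and 4.36 CPM against 3.56, 2.91 and 3.36 CPM (-1.60 ± 0.44, adjusted p = 0.561), with sham hens 1 and 2 well above the rest. EPHA1, an ephrin receptor, was at 1.97, 2.19 and 3.17 CPM against 0.65, 0.8 and 1.45 CPM (-1.33 ± 0.36, adjusted p = 0.561), and TBC1D16, a Rab GTPase activator, was at 38.1, 44.1 and 42.4 CPM against 30.7, 24.9 and 26.4 CPM (-0.60 ± 0.12, adjusted p = 0.418). C8ORF22, TMEM86A, SEMA6D, PDE11A, HMCN1, EPHA1 and TBC1D16 kept the cut-off in 7, 5, 5, 1, 2, 1 and 6 of 9 fits. The fits without 1 library gave 1.09 (without sham hen 1) to 1.62 (without sham hen 2) for C8ORF22 and -1.96 (without sham hen 3) to -1.23 (without sham hen 1) for HMCN1.

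Of the 13 DE loci, 7 match no identified gene and 3 carry an Ensembl identifier without a symbol in the files. ENSGALG00000000443 (chromosome 25, 205888 to 214237, minus strand) had 42, 50 and 13 reads in the sham hens and 3, 1 and 3 reads in the albumen-deprived hens. The study annotates it as SPAG-4 like, a relative of a sperm-associated antigen. From the summed counts the sham hens were 13.7-fold higher, with an exact 95% interval of 6.44 to 35.0 that covers counting error only. ENSGALG00000009387 (chromosome 5, 26765467 to 26816464, plus strand) was at 0.98, 1.99 and 1.25 CPM in the sham hens and at 0.32, 0.29 and 0.4 CPM in the albumen-deprived hens (-2.06 ± 0.40, adjusted p = 0.418). Both kept the DE cut-off in 4 and 3 of 9 fits and the loosened cut-off in all 9. ENSGALG00000008635 (chromosome 1, 20126933 to 20130565, minus strand) was at 0.46, 0.25 and 0.13 CPM against 2.14, 2.06 and 1.58 CPM (2.73 ± 0.42, adjusted p = 0.226). With XLOC_002413, which lies 1.01 kb away, it kept the DE cut-off in all 9 fits.

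The unidentified loci were often weakly expressed, and 16 of the 30 at the loosened cut-off have 1 exon and 19 averaged under 5 CPM in every group. XLOC_008688 was at 0.52, 0.5 and 0.26 CPM in the sham hens and 5.18, 2.06 and 6.45 CPM in the albumen-deprived hens (3.37 ± 0.50, adjusted p = 0.226). It lies inside the span of XLOC_007417 (chromosome 2, 96419929 to 96436809), which was at 1.04, 1.49 and 0.79 CPM against 12.2, 4.86 and 11.4 CPM (3.07 ± 0.46, adjusted p = 0.226). A further model in that span, XLOC_008687, was 2.66 higher on the log2 scale. Where these 3 models overlap, their reads cannot be told apart without strand. XLOC_002413 was at 0.7, 0.75 and 0.46 CPM against 3.95, 3.66 and 4.81 CPM (2.68 ± 0.41, adjusted p = 0.226).

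Of the 90 loci, 18 lay within 50 kb of another, in 8 clusters. All of these loci were higher, as were 66 of the 90. Some clusters hold models that overlap or abut, which need not be separate loci. CYP7A1 and UBXN2B, a cofactor of the p97 ATPase, are 20.1 kb apart on chromosome 2. UBXN2B was at 4.69, 2.83 and 4.03 CPM in the sham hens and 7.25, 6.74 and 7.44 CPM in the albumen-deprived hens (0.89 ± 0.24, adjusted p = 0.561). SLC20A2 and SGK196, a protein O-mannose kinase, are 7.21 kb apart on chromosome 4 (0.74 and 0.68 on the log2 scale). TMEM86A and the DE locus XLOC_015156 are 13.7 kb apart on chromosome 5 (1.23 and 1.25). Where models overlap, their reads cannot be told apart without strand, and the authors did not count reads that fitted more than 1 gene. Whether an unidentified model beside a gene is part of that gene was not tested. How often loci at this cut-off would neighbour each other was not tested either.

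Of 31 genes that the study itself listed as different between these groups, 28 passed the filter, 16 above and 12 below 0, and 6 and 5 of them reached the loosened cut-off. The study had chosen them in its own fit at P under 0.001 with a log2-fold change over 1. At that stricter cut-off, the DE cut-off used here, 1 of them passed as higher and 2 as lower. The 28 hold HERPUD1, BMF, TNFSF10, GLUL, IP6K2, SLC6A6, SEMA6D, TMEM86A, HMCN1 and the defensins above. All 28 were at P under 0.05, which is no independent evidence, since the list was chosen on these samples. The other 3 had few reads. PROK2, a secreted prokineticin, had 27, 56 and 11 reads in the sham hens and 1, 3 and 8 reads in the albumen-deprived hens, GRIN2C, a glutamate receptor subunit, 5, 1 and 10 against 21, 51 and 6, and LRRC3C 27, 14 and 20 against 5, 5 and 10. The study also measured part of its list by qPCR in more hens per group, with a looser P limit. Of the genes named here, BMF, TNFSF10, TMEM86A, CKS1B and LRRC3C differed there in the same direction. SEMA6D and H2B-I went the opposite way, lower in the albumen-deprived hens. HERPUD1, GLUL, SLC6A6, LECT2 and SPAG-4 like did not differ significantly by qPCR.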

How the data were processed

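Liver RNA of 9 hens (3 non-manipulated, 3 sham-manipulated, 3 albumen-deprived; groups from the sample titles) was sequenced as single-end, unstranded TruSeq libraries. The deposited counts are raw reads per locus, which the authors obtained with TopHat2 2.0.8b on Galgal4, SAMtools, Cufflinks 2.1.1 with Cuffmerge and HTSeq 0.5.4p3. The deposited FPKM values were made by the authors from counts after full quantile normalization for GC content, and the percent GC per locus is as deposited by the authors. The deposited differential expression table (the authors' fold changes, p-values, calls) was not used, and the names of 31 genes that the study listed in its text served as a list chosen on these samples, with values computed here.

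Loci over 1 CPM in at least 3 of 9 libraries (12324 of 22082) were fitted with edgeR 4.0.16 (R 4.3.3), with TMM normalization, a coefficient per group and the quasi-likelihood F-test; SE is the log2-fold change divided by the root of F. Adjusted p-values are Benjamini-Hochberg over all 12324 loci. A library held at least 14075978 counts, and intervals on summed counts are exact and cover counting error only.

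The comparison, the 46 gene lists and the tests were chosen with earlier results of these data known. Of 1298 list members 1116 were found, 37 of them by RefSeq synonym, and lists are described by counts and medians, with no set test. Named genes were the identified genes at the DE cut-off with the 3 unidentified loci of smallest P there, the 15 higher and 15 lower identified genes of smallest P at the loosened cut-off whose hens do not overlap, and in each list the members at that cut-off, up to 4 of smallest P and defining members. Alternatives (19) were DESeq2 1.42.0, the likelihood ratio test, other normalizations, filters and designs, and each library left out. The fit was tested on simulated data.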

Additional observations from a re-analysis of the deposited data

How the results depend on the processing

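Counts of loci at the DE cut-off (13) were 22 with no filter on low counts, 53 with the likelihood ratio test of edgeR and 45 with DESeq2, and 10 to 23 with 1 library left out, the lowest without sham-manipulated hen 1 and the highest without sham-manipulated hen 2. At the loosened cut-off (90) there were 172 with the likelihood ratio test and 172 with DESeq2, and 56 (without albumen-deprived hen 2) to 114 (without sham-manipulated hen 2) with 1 library left out. Of those 90 loci, 22 passed in all 9 such fits. None reversed in any alternative, which says little, since the loci were picked for their differences in these same hens and every alternative reuses them. Loci with an adjusted p under 0.05 numbered 0 except with the likelihood ratio test (31) and DESeq2 (42). The loci whose hens do not overlap, albumen-deprived vs sham-manipulated (1572), were 4378 with replicates 1 and 2 of each group alone and 1559 to 3166 with 1 library left out, since fewer hens overlap less often. The cause of the other differences was not tested. With a replicate block, 17 loci passed the DE cut-off and 94 the loosened one, but same-numbered hens did not deviate together, so the number pairs nothing. Loci under a few counts per library are limited by depth.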
